A study of Mus musculus with 514 samples.

Results

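Ribosome biogenesis factors are the nucleolar proteins that make ribosomal RNA and assemble it with ribosomal proteins, and 44 of them were chosen by gene symbol to be followed from the oocyte to the 8-cell mouse embryo. Of the 44 symbols, 42 were found in both deposited expression tables, out of 55168 named genes in the full-length table. Npm1 and Dkc1l were not analysed here. The choice went by symbol and not by a measured value, but earlier results of these data were known when it was made. The 42 genes were grouped by role into 7 genes of RNA polymerase I and its factors, 2 abundant nucleolar proteins, 3 core proteins of box C/D small nucleolar ribonucleoproteins (snoRNPs), 15 of the small subunit processome, 2 late small subunit factors, 2 nucleolar RNA helicases and 11 large subunit assembly factors.

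The study profiled polyadenylated RNA of single mouse oocytes and embryos, with deletions of the orphan nuclear receptor genes Nr5a2 (NrKO), Esrrb (EKO) or both (DKO), by a protocol derived from FLASH-seq, which reads whole transcripts from very small amounts of RNA. In the names of knockout groups m, z and mz mean that the mother's contribution, the embryo's own, or both lacked the gene. Control groups carry mz or z in their names as well but did not lack it. Controls were heterozygous for both deletions (DHet) or for the Nr5a2 deletion (NrHet), or, per the file headers, carried only wild-type or floxed alleles (Nrpp). There were 263 full-length libraries. MII oocytes (arrested at the second meiotic metaphase, the egg before fertilization) comprised 9 Nrpp, 18 NrHet and 12 NrKO. Early 2-cell (E2C) embryos comprised 21 mz_Nrpp, 29 mz_NrHet, 22 mz_NrKO, 18 m_NrKO and 12 z_NrKO. Late 2-cell (L2C) embryos comprised 7 mz_DHet, 10 mz_EKO, 10 mz_NrKO, 6 mz_DKO, 7 z_NrHet and 6 z_NrKO. At the 4-cell (4C) stage there were 6 mz_DHet, 4 mz_EKO, 5 mz_NrKO and 10 mz_DKO embryos. The 8-cell (8C) embryos comprised 10 mz_NrKO, 10 mz_EKO, 10 mz_DKO and 21 mz_DHet. The Cre line, the age and strain of the mice and the deleted exons are not given in the sources used here, and no dam or litter is named, so a p-value here compares single oocytes or embryos that may have 1 mother.

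In the nucleolus, RNA polymerase I transcribes the ribosomal DNA into a long precursor. The small subunit processome and the box C/D snoRNPs fold, modify and cut that precursor, and separate sets of factors then mature the small and the large subunit before export. The fully grown mouse oocyte stores ribosomes and silences its ribosomal DNA, and the embryo resumes ribosomal RNA synthesis around the time its genome is activated in the 2-cell embryo. The measurements below are of messenger RNA of the factors, not of ribosomal RNA or ribosomes.

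Promoter windows of RefSeq genes on GRCm38.p6, each from 250 bases before to 50 bases after the start, were matched for 37 of the 42 genes; none was matched for Fbl, Rrp12, Gnl2, Bop1 and Rrs1. Windows are printed for the 4 genes called in mz_NrKO embryos at the 8-cell stage (Utp3, Gnl3, Rrp9 and Polr1a) and for the 2 genes with the largest log2 rises at the late 2-cell stage (Nop2 and Nob1). They lie at chr5:88554212-88554511 on the plus strand (Utp3), chr14:31019082-31019381 on the minus strand (Gnl3), chr9:106477059-106477358 on the plus strand (Rrp9), chr6:71908803-71909102 on the plus strand (Polr1a), chr6:125131633-125131932 on the plus strand (Nop2) and chr8:107424989-107425288 on the minus strand (Nob1). Each is written 5′ to 3′ on the gene's strand, and capitals mark a match to a searched motif on either strand.
Utp3: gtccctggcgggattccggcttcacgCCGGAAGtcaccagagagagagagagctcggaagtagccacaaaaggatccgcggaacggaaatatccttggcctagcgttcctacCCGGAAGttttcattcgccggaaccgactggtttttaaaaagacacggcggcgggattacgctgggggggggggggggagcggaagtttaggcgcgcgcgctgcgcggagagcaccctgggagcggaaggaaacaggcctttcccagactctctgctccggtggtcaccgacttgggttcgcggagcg
Gnl3: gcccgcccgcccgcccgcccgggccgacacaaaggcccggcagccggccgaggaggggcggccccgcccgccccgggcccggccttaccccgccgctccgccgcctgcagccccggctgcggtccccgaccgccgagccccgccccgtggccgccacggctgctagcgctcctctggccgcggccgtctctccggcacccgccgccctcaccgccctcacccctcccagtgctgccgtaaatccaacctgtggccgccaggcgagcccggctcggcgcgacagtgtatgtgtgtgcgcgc
Rrp9: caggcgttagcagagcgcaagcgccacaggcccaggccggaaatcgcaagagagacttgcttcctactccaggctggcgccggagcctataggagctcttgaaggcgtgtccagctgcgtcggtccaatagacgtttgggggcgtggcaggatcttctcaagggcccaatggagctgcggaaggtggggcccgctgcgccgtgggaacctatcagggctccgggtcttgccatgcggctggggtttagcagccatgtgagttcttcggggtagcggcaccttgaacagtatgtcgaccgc
Polr1a: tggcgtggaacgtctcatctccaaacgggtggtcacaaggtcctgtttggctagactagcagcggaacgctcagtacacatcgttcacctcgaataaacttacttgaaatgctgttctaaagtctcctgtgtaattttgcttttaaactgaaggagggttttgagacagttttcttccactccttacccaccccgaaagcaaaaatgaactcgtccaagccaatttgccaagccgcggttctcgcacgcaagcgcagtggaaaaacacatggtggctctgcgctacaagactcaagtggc
Nop2: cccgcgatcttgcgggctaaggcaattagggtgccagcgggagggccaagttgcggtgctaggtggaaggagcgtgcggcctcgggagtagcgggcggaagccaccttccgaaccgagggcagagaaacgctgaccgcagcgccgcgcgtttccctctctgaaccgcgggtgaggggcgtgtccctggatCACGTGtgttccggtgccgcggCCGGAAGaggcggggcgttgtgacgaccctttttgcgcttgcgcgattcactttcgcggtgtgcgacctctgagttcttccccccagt
Nob1: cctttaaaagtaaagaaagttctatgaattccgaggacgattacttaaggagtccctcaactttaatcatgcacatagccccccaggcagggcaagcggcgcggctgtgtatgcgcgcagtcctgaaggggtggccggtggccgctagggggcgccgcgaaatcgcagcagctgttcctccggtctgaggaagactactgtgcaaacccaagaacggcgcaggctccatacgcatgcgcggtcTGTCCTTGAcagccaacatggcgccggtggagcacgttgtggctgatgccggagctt
The motifs below were searched on both strands: TCAAGGNCA (the site bound by Nr5a2 and Esrrb), CACGTG (an E-box), CCGGAAG (an ETS site), AAGATGGC (a YY1 site) and TATAAA. In the windows shown, CCGGAAG stood at bases 27 and 113 of Utp3 and base 213 of Nop2, CACGTG at base 191 of Nop2 and TCAAGGNCA, as its reverse complement, at base 244 of Nob1. No searched motif was found in the Gnl3, Rrp9 and Polr1a windows, which says only that these letters are not in those 300 bases. Over the 37 genes with a window, CCGGAAG was in 40.5% (15 genes), against 8.86% of all 32851 windows and 9.93% of all 27025 genes with a window. CACGTG was in 21.6% (8 genes: Nop2, Pes1, Rrn3, Tsr1, Utp18, Utp20, Utp4 and Wdr43), against 7.15% of windows and 8.09% of genes. TCAAGGNCA was in 2.70% (Nob1 alone), against 1.62% of windows and 1.86% of genes. TATAAA was in 2.70% (Pes1 alone), against 13.6% of windows and 15.7% of genes. AAGATGGC was in 0 of 37, against 2.75% of windows and 3.19% of genes. The median GC content was 61.2% in the windows of these genes and 52.7% in all windows. The motif counts were not adjusted for that base composition, and a match is not a bound site.

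Levels are in TPM (transcript abundance normalised for gene length and library total), which are shares of a library, so a change in TPM cannot be told apart from a change in the rest of the RNA. Marker levels followed the stage labels in part, and did not clearly tell L2C from 4C controls. The summed median of 6 of 7 oocyte markers fell from 5437 TPM in MII Nrpp to 376 (263 to 593) in L2C mz_DHet. It was 239 (164 to 354) in 4C mz_DHet and 20.3 in 8C mz_DHet. The 6 markers of the 2-cell burst summed to a median of 0 TPM in MII Nrpp and 750 in E2C mz_Nrpp. They stood at 1039 (594 to 1227) in L2C mz_DHet, 1156 (800 to 1795) in 4C mz_DHet and 8.16 in 8C mz_DHet. The 7 markers of the 8-cell embryo summed to medians of 161 TPM in MII Nrpp and 143, 105 and 997 in L2C, 4C and 8C mz_DHet. All 5 sperm markers had a median of 0 in these groups, and 6 of 10 cumulus and granulosa markers (Amh, Fshr, Foxl2, Has2, Tnfaip6 and Pgr) had a median of 0 in MII Nrpp, where that list summed to a median of 110 TPM. At L2C 5 oviduct markers summed to medians of 198, 220, 332 and 402 TPM in mz_DHet, mz_EKO, mz_NrKO and mz_DKO. There 7 blood markers summed to 11.7, 5.35, 8.52 and 11.3 TPM, with the highest library at 286 in mz_NrKO and 296 in mz_DKO. The source of that RNA was not tested. The whole-gene Nr5a2 level was not called lower in any NrKO comparison: its log2 fold change lay at -0.04 in MII oocytes, between -0.13 and 0.02 in the E2C groups and at 0.03, 0.38 and 0.38 in mz_NrKO at L2C, 4C and 8C (at 8C adjusted p = 0.0854, limma). It was 0.54 in L2C z_NrKO, not called, and 0.23, 0.21 and 0.64 in mz_DKO at L2C, 4C and 8C. The last was called higher (limma adjusted p = 0.0025). With the deleted exons not given, the whole-gene level checks nothing for Nr5a2. Esrrb was lower at 8C in mz_EKO by a log2 fold change of -1.56 and in mz_DKO by -0.96 (limma adjusted p = 0.000277 and 0.00113). It was not called at L2C (-0.71 in mz_EKO, -0.17 in mz_DKO) or at 4C (-0.22 and -0.76), so that the labels of those embryos are not checked by it. In E2C mz_NrKO replicate 1 the 42 genes summed to 664 TPM and Esrrb stood at 1253 TPM. The correlation of a library with its group's median profile was lowest in L2C mz_NrKO replicate 6 (0.714), 8C mz_NrKO replicate 1 (0.767), L2C mz_EKO replicate 9 (0.769) and 4C mz_EKO replicate 4 (0.774). The 8C mz_NrKO replicate 7, left out in an alternative added after seeing the data, had 0.823, close to the 0.828 and 0.825 of 8C mz_DHet replicates 1 and 2.

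The 42 genes went from low levels in the oocyte to high levels at the late 2-cell stage, stayed there in 4-cell embryos and were lower again, in part, at the 8-cell stage. The median over genes of the group median was 9.57 TPM in MII Nrpp oocytes, 21.1 in E2C mz_Nrpp, 245 in L2C mz_DHet, 220 in 4C mz_DHet and 164 in 8C mz_DHet. Genes with a median of 50 TPM or more numbered 12, 13, 41, 40 and 36 at the same stages. The highest median lay at L2C for 21 genes, at 4C for 14, at 8C for 5 and in the oocyte for 2. Across libraries, the summed level of the 42 genes had a median of 1626 TPM (range 1379 to 2211) in MII Nrpp and 2006 (1763 to 2372) in E2C mz_Nrpp. It was 13892 (11800 to 15959) in L2C mz_DHet, 13393 (11498 to 16530) in 4C mz_DHet and 9826 (5424 to 11043) in 8C mz_DHet. Thus every L2C and 4C control library lay above every control library of the earlier stages. Which step the dates in the labels mark is not given in the sources used here. L2C controls shared a date with 4C controls and another with 8C controls. No other neighbouring stages of these controls shared a date, so stage and date cannot be told apart from MII to E2C, from E2C to L2C or from 4C to 8C. The oocyte and E2C controls were Nrpp and later controls mz_DHet, so control genotype also cannot be told apart from stage between E2C and L2C.

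**Figure D1:**
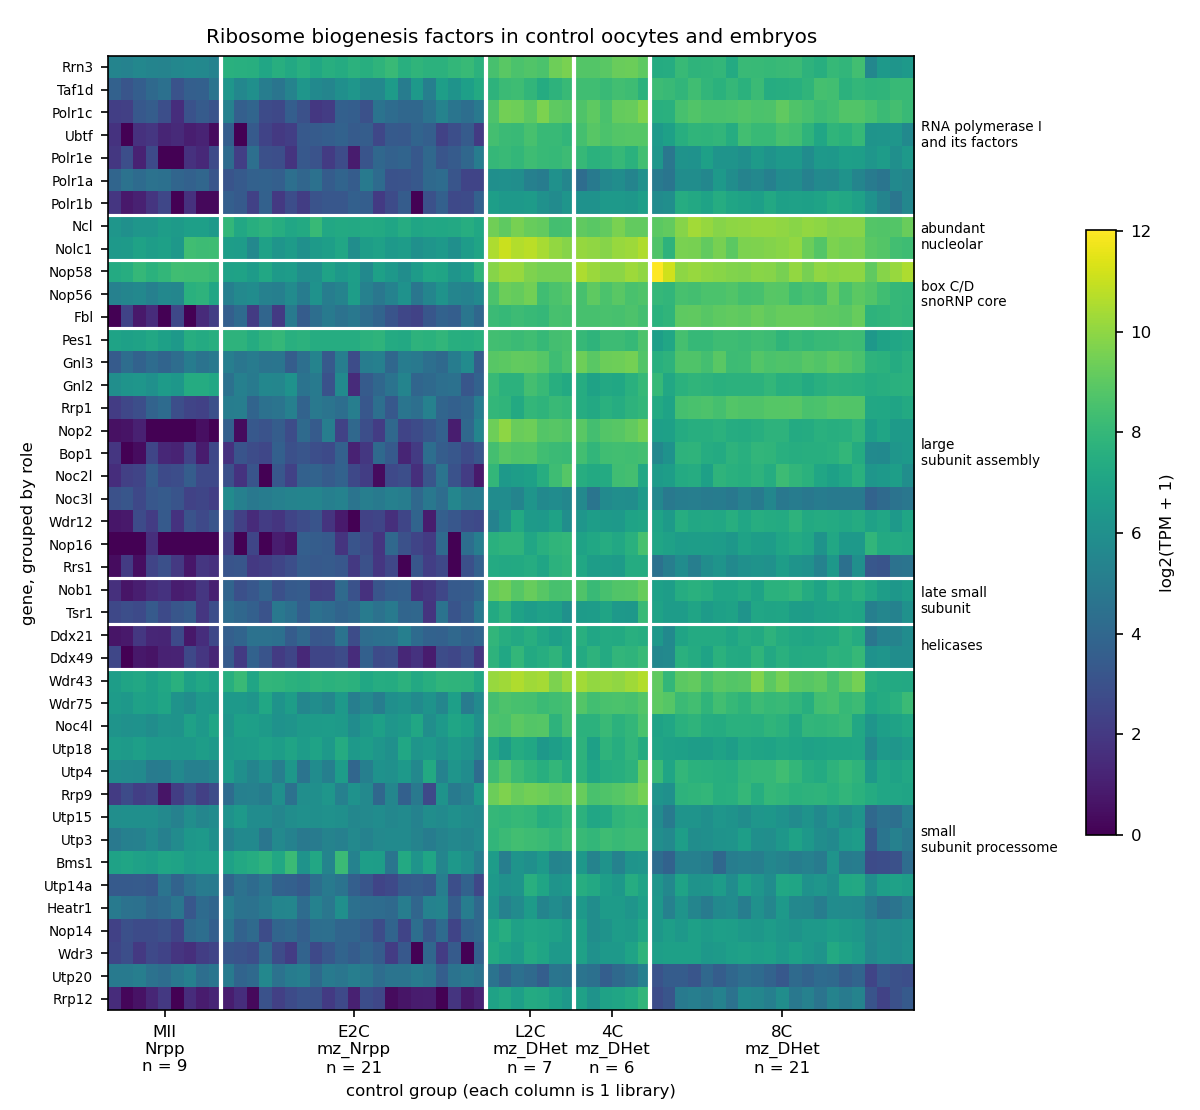
Heat map of log2(TPM + 1) for the 42 genes (rows, grouped by role) in every control library (columns) from MII Nrpp oocytes to 8C mz_DHet embryos, with the number of libraries under each group. Most rows turn lighter between E2C and L2C, where 40 of 42 genes rose, while Utp20 and Bms1 do not.

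From the MII oocyte to the early 2-cell embryo, 23 of the 42 genes rose and 5 fell (limma, Benjamini-Hochberg adjusted p under 0.05, as for every call below). That is beside 53.2% of all 15453 genes called, 40.7% higher and 12.5% lower, and the median log2 change was 0.61 for these genes and 0.45 for all genes. With median-of-ratios scaling the split was 17 higher and 12 lower, and the medians were 0.24 and 0.18. The shares of all genes called with that scaling are not given here. Nop2, the methyltransferase of the large subunit's ribosomal RNA, was at or near 0 in the oocyte (0, 0 and 1.16 TPM as lowest, median and highest) and at 0.293, 9.04 and 42.9 TPM in E2C mz_Nrpp, a log2 change of 2.91. Rrp9, a protein of the U3 snoRNP, went from a median of 3.86 TPM to 37.3 (log2 change 2.93), and Fbl, the methyltransferase of box C/D snoRNPs, from 1.82 to 13.5 (2.50). Rrn3, which brings RNA polymerase I to its promoter, rose from a median of 41.5 TPM (39.0 to 51.2) to 190 (135 to 280), with no overlap between the groups. Ncl, Taf1d, Ddx21 and Noc3l likewise had every E2C library above every oocyte, as did 10.9% of all 15453 genes.

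The 5 genes that fell were Gnl2 (log2 change -2.18), Nop58 (-1.31), Nolc1 (-0.71), Nop56 (-0.63) and Wdr75 (-0.53). Gnl2, a GTPase of large subunit assembly, had a median of 81.4 TPM (59.6 to 169) in oocytes and 21.2 (1.80 to 69.7) at E2C. Nop58, a scaffold protein of box C/D snoRNPs, had 257 TPM (159 to 325) in oocytes, the highest median of any of the 42 genes there, and 99.4 (50.5 to 226) at E2C. For Nop56, the partner of Nop58, the oocyte level differed between dates: the 6 Nrpp oocytes of 20 June had a median of 44.3 TPM and the 3 of 5 June a median of 196, against 40.6 at E2C.

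From the early to the late 2-cell embryo 40 of 42 genes rose and none fell, against 36.2% of all 15453 genes higher and 40.9% lower (77.2% called in all). The median log2 change was 3.34 for these genes and -0.12 for all genes. For 37 of the 42 genes every L2C mz_DHet library lay above every E2C mz_Nrpp library, beside 16.6% of all 15453 genes. Among large subunit factors all 11 rose, with a median log2 change of 4.27. Nop2 had 433, 606 and 998 TPM as lowest, median and highest in L2C, a log2 change of 5.97 from E2C. Bop1, a member of the complex with Pes1 and Wdr12 that processes the large subunit precursor, had 6.61 TPM at E2C (1.23 to 19.5) and 347 at L2C (279 to 471), a change of 5.62. Noc3l (median 34.6 to 55.4 TPM, log2 change 0.72) and Pes1 (198 to 317 TPM, 0.70) had the smallest rises in this role, and both were already expressed at E2C.

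All 7 genes of RNA polymerase I and its factors rose as well, with a median log2 change of 3.43. Polr1c, a subunit shared with RNA polymerase III, had 13.9 TPM (2.87 to 39.9) at E2C and 530 (406 to 802) at L2C. Ubtf, which binds the ribosomal DNA, went from 9.46 TPM (0 to 13.8) to 281 (236 to 368), and Polr1e, a polymerase subunit, from 8.92 (0.857 to 31.5) to 269 (251 to 306). The largest subunit, Polr1a, was the least abundant of this role at L2C at 61.1 TPM (31.7 to 65.5), up from 11.3 (4.46 to 30.3). None of these pairs of groups overlapped.

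In the small subunit processome 13 of 15 genes rose. Rrp12, which acts in export of the small subunit precursor, went from 1.92 TPM (0 to 7.20) to 120 (83.2 to 161), and Wdr43 from 200 (133 to 279) to 1249 (804 to 1527), the highest median of the role. The 2 that were not called were Utp20, at 25.0 TPM (11.0 to 47.4) and then 20.9 (10.9 to 24.2), and Bms1, a GTPase, at 107 TPM (24.2 to 293) and then 61.9 (34.6 to 99.3); both groups of values overlapped (adjusted p = 0.0962 and 0.0746). Nob1, the nuclease that makes the mature end of the small subunit RNA, rose from 8.45 TPM (2.14 to 16.8) to 469 (362 to 683), a log2 change of 5.88, and the helicases Ddx49 and Ddx21 by 5.07 and 3.28. Nolc1, a chaperone of snoRNPs, reached the highest median of all 42 genes at this stage, 1496 TPM (912 to 2100), from 95.7 (47.7 to 138). Nop58, Nop56 and Fbl reached 833, 448 and 288 TPM.

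Between L2C and 4C mz_DHet embryos 0 of 42 genes were called, against 9.2% of all genes, 2 having an unadjusted p under 0.05 (limma). The median log2 change was -0.03. The largest values were those of Heatr1 (0.62, adjusted p = 0.231) and Noc4l (-0.61, adjusted p = 0.0878), and Utp18 had the smallest adjusted p (0.59, adjusted p = 0.0697). For all 42 genes the L2C and 4C groups overlapped; 1.25% of all genes had groups that did not.

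From the 4-cell to the 8-cell control 21 genes fell and 2 rose, against 38.8% of all genes lower and 17.4% higher (56.2% called), with a median log2 change of -0.60 for these genes and -0.40 for all. With median-of-ratios scaling 12 fell and 7 rose, and the medians were -0.08 and -0.09. The shares of all genes with that scaling are again not given, so these counts cannot be set against them. The falls were most frequent in the small subunit processome, where 11 of 15 genes fell. Rrp12 went from 126 TPM (70.1 to 239) to 30.1 (4.21 to 58.7), a log2 change of -2.50. Utp3 went from 282 TPM (248 to 306) to 61.5 (9.04 to 119), a change of -2.25, and Utp15 from 220 (139 to 266) to 62.2 (15.9 to 80.3), -1.94. In these 3 genes, and in Nop2, Wdr43, Rrp9, Polr1e, Rrn3 and Nob1, every 8C control library lay below every 4C one. That is 9 of 42 genes, beside 11.4% of all genes. The genes that rose were Ncl, the abundant nucleolar protein nucleolin, at 555 TPM (483 to 784) and then 921 (433 to 1307), with a change of 0.52, and Rrp1, at 185 (150 to 248) and then 388 (123 to 475), with 0.68; both groups overlapped.

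The 8C controls came from 3 dates, and these genes differed between them. Bop1 had a median of 192 TPM in the 15 mz_DHet embryos of 8 March, 57.1 in the 2 of 23 February and 66.0 in the 4 of 15 July. Rrp12 stood at 35.1, 6.93 and 7.24 TPM on the same dates. The 8 March date also held L2C embryos. From L2C to 8C mz_DHet 20 genes fell and 2 rose over all dates (64% of all genes called), and 17 fell and 8 rose on 8 March alone (56.5% of all genes called), a comparison and an alternative added after seeing the data.

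The ribosomal proteins, which these factors assemble, rose through both steps. Of 85 cytosolic ribosomal protein genes tested (of 87 listed), 83 rose and none fell from E2C to L2C (median log2 change 4.86), and 73 rose and 2 fell from 4C to 8C (median 1.46). In the same controls the median of their summed level was 1301 TPM in early 2-cell, 25945 in late 2-cell, 35464 in 4-cell and 91274 in 8-cell embryos. Of 113 other ribosome biogenesis genes, 103 rose and 4 fell from E2C to L2C (median 2.67) and 5 rose and 62 fell from 4C to 8C (median -0.77). With median-of-ratios scaling 12 of them rose and 34 fell in the latter step.

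**Figure D2:**
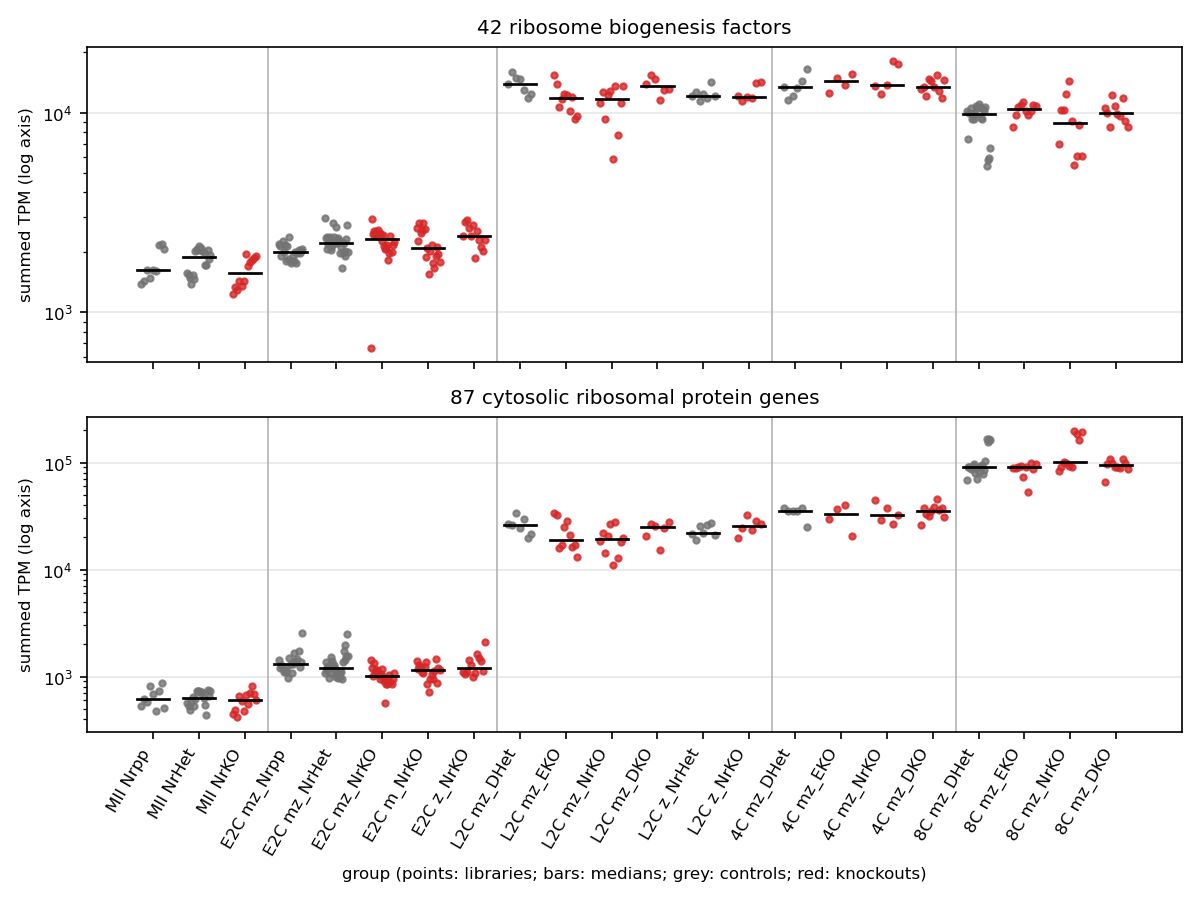
Summed TPM (log axis) of the 42 ribosome biogenesis factors (top) and of 87 cytosolic ribosomal protein genes (bottom) in each library, by group, with bars at the medians. The factors sum to a median of 13892 TPM in L2C mz_DHet and 9826 in 8C mz_DHet, while the ribosomal proteins go from 25945 to 91274 TPM, and knockout groups overlap the controls of their stage.

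In MII oocytes lacking Nr5a2, none of the 30 genes that passed the filter on low levels was called against NrHet oocytes (the other 12 did not pass it), and 0.212% of all 8952 genes were. At an unadjusted p under 0.05 there were 7 (limma). The 3 smallest p-values were those of Polr1c, Nop58 and Nolc1. Polr1c had 1.61, 3.30 and 12.8 TPM (lowest, median, highest) in NrKO oocytes and 2.30, 9.10 and 33.7 in NrHet oocytes, a log2 fold change of -1.01 ± 0.26 (SE, adjusted p = 0.0838). Nop58 had 134, 204 and 301 TPM in NrKO and 208, 292 and 344 in NrHet (-0.29 ± 0.08, adjusted p = 0.101). Nolc1 had medians of 165 and 280 TPM (-0.24 ± 0.08, adjusted p = 0.169). All 3 pairs of groups overlapped. Against the 9 Nrpp oocytes, where 1.2% of all genes were called, 2 genes were lower, Utp14a (-0.95, adjusted p = 0.0061) and Nolc1 (-0.41, adjusted p = 0.0216).

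At the early 2-cell stage Nop16 and Nop56 were lower in mz_NrKO than in mz_NrHet embryos, and no other gene of the 42 was called. The 2 called are 4.76% of the 42, and 5.17% of all 13040 genes were called. Nop16, a nucleolar factor of large subunit assembly (chromosome 13, 54584185 to 54590090, minus strand, GENCODE on GRCm38), had 0, 0.730 and 5.57 TPM as lowest, median and highest in 22 mz_NrKO embryos and 0, 5.65 and 68.6 in 29 mz_NrHet embryos. All 22 knockout embryos lay below the control median, with 7 of 22 at 0 against 2 of 29, and the groups overlapped. The log2 fold change was -1.43 ± 0.36 (SE, limma adjusted p = 0.00834). Nop56 had 15.1, 34.9 and 74.3 TPM in mz_NrKO and 16.6, 54.6 and 118 in mz_NrHet, with 18 of 22 knockout embryos below the control median (-0.62 ± 0.17, adjusted p = 0.0138). Exons of Nop56 (chromosome 2, 130274430 to 130279313, plus strand) overlap small nucleolar RNAs on the same strand and Idh3b on the other, and whether the counting used strand is not given in the sources used here.

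Both calls varied with the date and the control. The fits held 42 libraries of all groups on 1 August, 20 on 7 November and 19 on 14 November. A missing call alone is thus not a difference between the dates. Nop16 was called on 1 August (-1.91, adjusted p = 0.0166) and had -0.64 on 7 November (adjusted p = 0.518) and -1.26 on 14 November (adjusted p = 1). Nop56 was called on 7 November (-1.29, adjusted p = 0.00408) and had -0.08 on 1 August (adjusted p = 0.899) and -1.05 on 14 November (adjusted p = 1). Against the mz_Nrpp control (1.79% of all genes called) neither was called (-0.66, adjusted p = 0.475, and -0.37, adjusted p = 0.354). Without mz_NrKO replicate 1 both were called (-1.42 and -0.57), and so was Noc4l, which was higher (0.34, adjusted p = 0.0167); with median-of-ratios scaling Noc4l was called as well (0.33). The markers of the 2-cell burst were also lower in this group, at a summed median of 165 TPM (18.3 to 680) against 866 (46.0 to 2603). All 6 markers were detected in both groups. The sum stood at 281 (19.3 to 1501) in m_NrKO and 392 (66.3 to 2929) in z_NrKO, where the fit over all dates called no gene of this set. The part of these markers in the Nop16 and Nop56 differences was not tested.

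**Figure D3:**
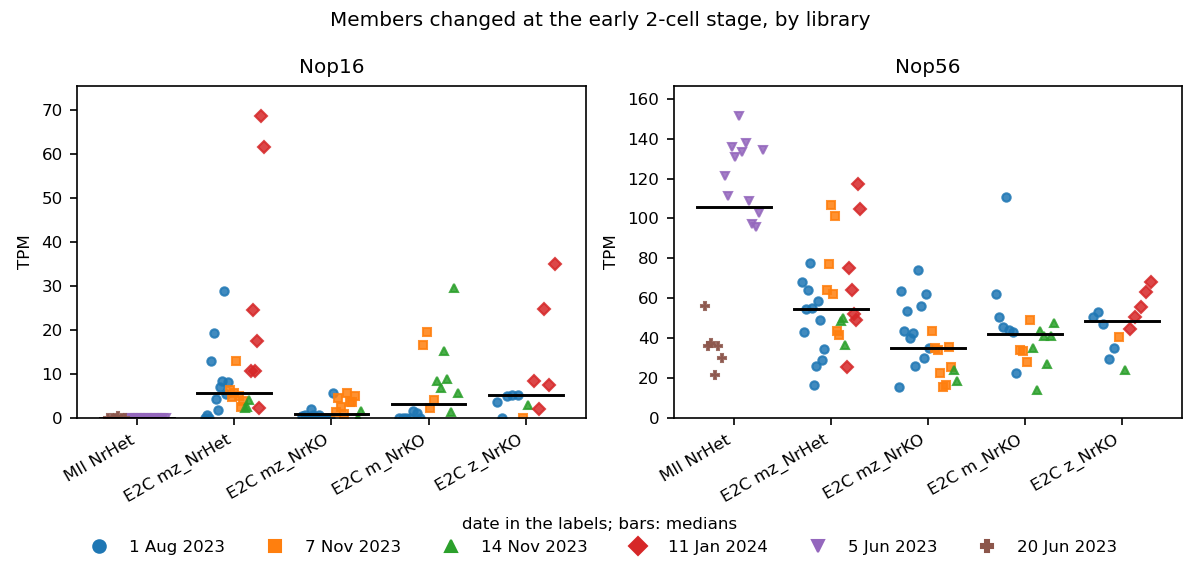
TPM of Nop16 and Nop56 in every library of MII NrHet oocytes and of 4 E2C groups, with bars at the medians and symbols for the date in the labels. The mz_NrKO embryos have a Nop16 median of 0.730 TPM and the mz_NrHet embryos one of 5.65. The 2 highest Nop16 values lie in mz_NrHet embryos of 11 January, a date with no mz_NrKO embryo.

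In embryos lacking only maternal Nr5a2 (m_NrKO) 0 of 42 genes were called against mz_NrHet, with 0.245% of all genes called and 6 of the 42 at an unadjusted p under 0.05 (limma). Tsr1, a late factor of the small subunit, had medians of 11.5 and 16.7 TPM (-0.77 ± 0.25, adjusted p = 0.136), Wdr3 5.98 and 9.89 (-0.91 ± 0.30, adjusted p = 0.139), and Gnl3 34.7 and 28.1 (0.47 ± 0.19, adjusted p = 0.25). Nop16 had -2.12 on 1 August (adjusted p = 0.0368), 0.48 on 7 November (adjusted p = 0.705) and 1.24 on 14 November (adjusted p = 0.805). In embryos lacking only the zygotic gene (z_NrKO) 0 of 42 and 0% of all genes were called, with 2 of the 42 at an unadjusted p under 0.05. The smallest p-values were those of Gnl3 (0.43), Taf1d (-0.42) and Ddx21 (0.49), each with an adjusted p of 0.899. Of 107 other ribosome biogenesis genes tested at E2C, 5 were lower in mz_NrKO and none higher. These were Nufip1 (-0.97), which assembles box C/D snoRNPs, Esf1 (-0.95), Abt1 (-0.65), the polymerase I subunit Twistnb (-0.56) and the box C/D core protein Snu13 (-0.50). With median-of-ratios scaling 3 of these other genes were lower and 2 higher.

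At the late 2-cell stage, when these genes had just reached their high levels, no knockout had a called difference in any of the 42. For mz_NrKO against mz_DHet 0.127% of all 14147 genes were called, for mz_EKO 0%, for mz_DKO 0.141% and for z_NrKO against z_NrHet 0.099%. At an unadjusted p under 0.05 (limma) there were 3, 4, 1 and 2 of the 42. In mz_NrKO 35 of the 42 log2 fold changes were below 0 with a median of -0.27, and in mz_EKO 34 were, with a median of -0.24, against medians over all genes of 0.02 and -0.01. In mz_DKO the median was 0.11 and in z_NrKO -0.02. The 113 other ribosome biogenesis genes had medians of -0.23 in mz_NrKO and -0.22 in mz_EKO, and the ribosomal proteins tested -0.33 and -0.36, with none called.

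Bop1 had 32.5, 181 and 267 TPM (lowest, median, highest) in L2C mz_NrKO and 279, 347 and 471 in mz_DHet, so that every knockout embryo lay below every control, as in 0.459% of all genes, yet with date in the fit the log2 fold change was -1.03 ± 0.41 (adjusted p = 0.473). Wdr43 had 260, 771 and 922 TPM against 804, 1249 and 1527 (-0.58 ± 0.24, adjusted p = 0.482). Noc4l, of the small subunit processome, had 46.2, 198 and 332 TPM in mz_NrKO (-0.80 ± 0.33, adjusted p = 0.505), 128, 168 and 266 in mz_EKO (-1.06 ± 0.34, adjusted p = 0.709) and 125, 216 and 315 in mz_DKO (-0.76 ± 0.31, adjusted p = 0.447), against 217, 397 and 505 in mz_DHet. All 10 mz_NrKO embryos dated from 8 March, and of the 7 mz_DHet embryos 2 did and 5 dated from 22 May. With no date factor 8 genes were lower and 1 higher in mz_NrKO (10.8% of all genes called) and 3 were lower in mz_EKO (2.09%), Noc4l, Gnl2 and Nop56 among both. The date term rests on the mz_DHet and mz_DKO embryos, which came from both dates.

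At the 4-cell stage 0 of 42 genes were called in mz_NrKO (0.675% of all 13044 genes), in mz_EKO (0%) or in mz_DKO (2.58%), with 2, 3 and 3 of the 42 at an unadjusted p under 0.05 (limma). Polr1a had 50.1, 81.0, 59.9, 79.7 and 112 TPM in the 5 mz_NrKO embryos, all above the mz_DHet median of 44.6 (18.4 to 66.7), with a log2 fold change of 0.70 ± 0.33 (adjusted p = 0.42). Ubtf had 386, 292, 265, 129 and 396 TPM in mz_NrKO, all below the control median of 450 (-0.52 ± 0.25, adjusted p = 0.439). Ddx49 had 99.5, 150, 196 and 96.4 TPM in the 4 mz_EKO embryos against a control median of 221 (159 to 281), a change of -0.96 ± 0.22 (adjusted p = 0.469). In mz_DKO the smallest p was that of Bop1, with all 10 embryos below the control median (-0.37 ± 0.14, adjusted p = 0.198). Most mz_DHet and mz_DKO embryos dated from 17 June and most mz_EKO and mz_NrKO embryos from 22 May. The control medians here mix these dates, and a single mz_DHet embryo dated from 22 May. On 17 June alone mz_NrKO had 0.79 for Polr1a and -0.33 for Ubtf, neither called. Among the other ribosome biogenesis genes the helicase Ddx47 was higher in mz_NrKO (0.89) and in mz_DKO (0.52), and Utp23 was lower in mz_DKO (-0.63).

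At the 8-cell stage the loss of Nr5a2 was accompanied by changes in 28.3% of all 10876 genes, and 4 of the 42 ribosome biogenesis factors (9.52%) were called, 2 higher and 2 lower. The other 38 were not called, and the median log2 fold change of the 42 was -0.02, beside 0.00 over all genes. Utp3 and Gnl3 were higher and Rrp9 and Polr1a lower. In mz_DKO embryos 6 of 42 (14.3%) were called, against 33.7% of all genes: the same 4 genes in the same directions, with Rrp12 higher and Bop1 lower in addition. Rrp12 and Bop1 moved the same way in mz_NrKO without being called, and neither was called between mz_DKO and mz_NrKO. Both comparisons with mz_DHet use the same 21 mz_DHet embryos. In mz_EKO none was called, against 0.00919% of all genes, and none had an unadjusted p under 0.05 (limma). The 42 values in mz_EKO lay between -0.14 (Polr1b) and 0.31 (Ubtf), with a median standard error of 0.16.

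**Figure D4:**
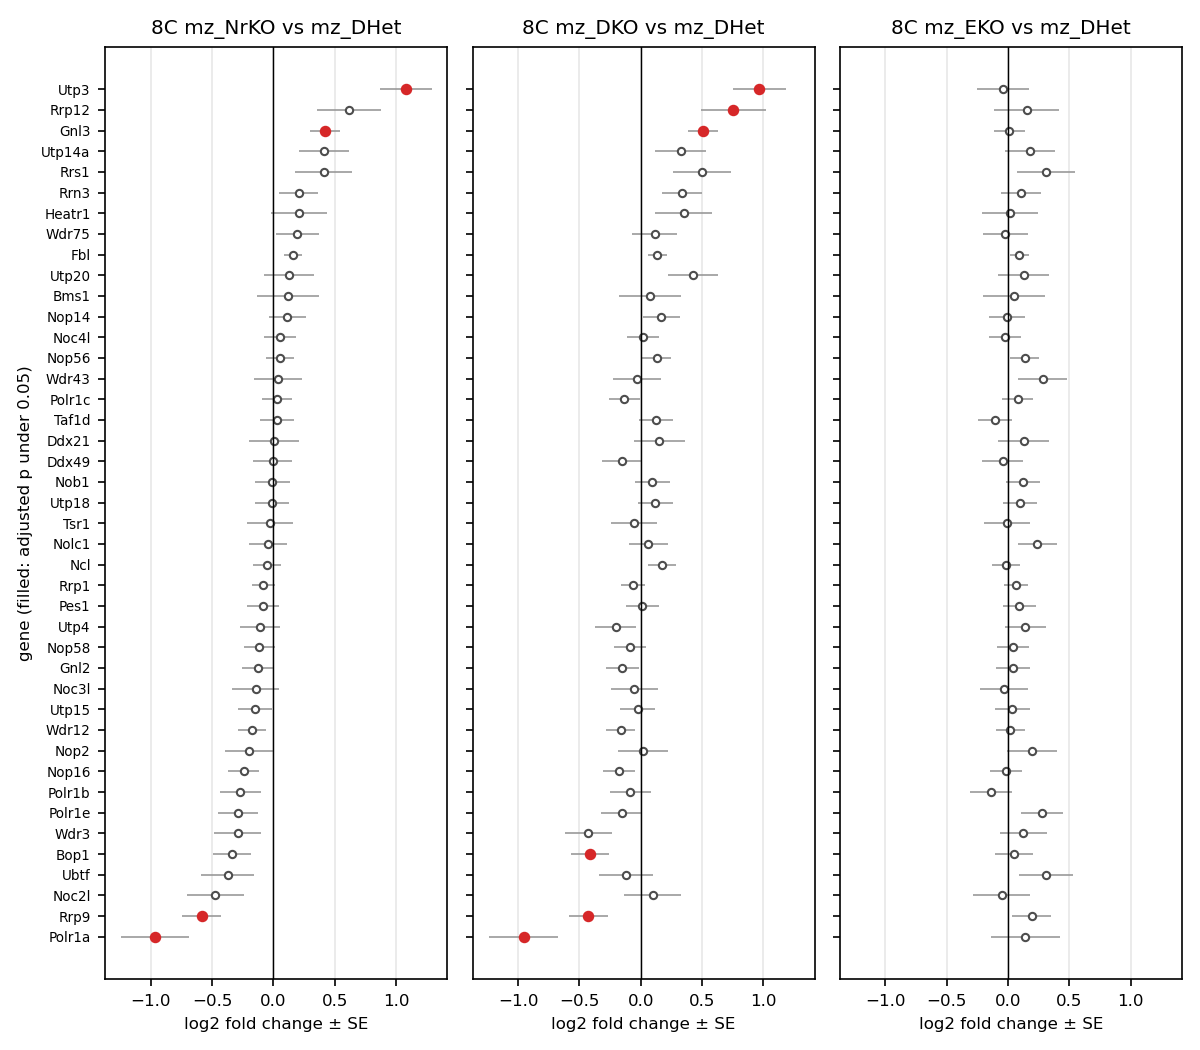
Log2 fold change with its standard error for the 42 genes in 8C mz_NrKO, mz_DKO and mz_EKO embryos against mz_DHet, in the order of the mz_NrKO values, filled where the adjusted p was under 0.05. Values run from -0.97 (Polr1a) to 1.08 (Utp3) in mz_NrKO and from -0.14 to 0.31 in mz_EKO.

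Utp3 (chromosome 5, 88554462 to 88556090, plus strand) encodes a protein of the small subunit processome. It had 35.6, 125 and 213 TPM (lowest, median, highest) in mz_NrKO, 70.2, 132 and 255 in mz_DKO, 36.7, 72.9 and 108 in mz_EKO and 9.04, 61.5 and 119 in mz_DHet. In mz_NrKO 9 of 10 embryos and in mz_DKO 10 of 10 lay above the control median, and both groups overlapped the control. The log2 fold change was 1.08 ± 0.21 (2.11-fold, SE, limma adjusted p = 9.17e-05) in mz_NrKO and 0.97 ± 0.21 (adjusted p = 0.000306) in mz_DKO. On 8 March alone it was 0.89 (adjusted p = 0.000858) and on 15 July alone 2.22 (adjusted p = 0.036) in mz_NrKO. The 8 March fit held 39 libraries of all groups and the 15 July fit 7, here and for the genes below. A missing call on 15 July alone is thus not a difference between the dates.

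Gnl3, the nucleolar GTPase nucleostemin (chromosome 14, 31012433 to 31019152, minus strand), had 196, 407 and 711 TPM in mz_NrKO, 335, 518 and 846 in mz_DKO and 168, 386 and 500 in mz_DHet. Only 5 of 10 mz_NrKO embryos lay above the control median, against 9 of 10 in mz_DKO; with date in the fit the changes were 0.42 ± 0.12 (adjusted p = 0.00759) and 0.51 ± 0.12 (adjusted p = 0.00105). On 8 March it was 0.46 (adjusted p = 0.0214) and on 15 July 0.37 (adjusted p = 0.344). Gnl3 hosts small nucleolar RNAs, and its exons overlap Pbrm1 on the other strand. Rrp12 had 4.34, 40.9 and 107 TPM in mz_NrKO (0.62 ± 0.26, adjusted p = 0.0721), 23.0, 44.4 and 90.0 in mz_DKO (0.75 ± 0.27, adjusted p = 0.0236) and 4.21, 30.1 and 58.7 in mz_DHet.

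Polr1a, the largest subunit of RNA polymerase I (chromosome 6, 71909053 to 71984935, plus strand), had 0.918, 28.1 and 74.2 TPM in mz_NrKO, 14.5, 23.7 and 41.2 in mz_DKO, 34.2, 54.1 and 87.7 in mz_EKO and 24.6, 47.0 and 90.3 in mz_DHet. In mz_NrKO 9 of 10 embryos and in mz_DKO 10 of 10 lay below the control median. The log2 fold change was -0.97 ± 0.28 (adjusted p = 0.00695) in mz_NrKO and -0.96 ± 0.28 (adjusted p = 0.00661) in mz_DKO. The lowest mz_NrKO value belonged to replicate 7, and without it the change was -0.52 (adjusted p = 0.0321). Reads with a unique molecular identifier (UMI), which mark transcript 5′ ends, were available for 16 mz_DHet and 5 mz_NrKO embryos. In these reads the mz_NrKO change was -0.44 (limma adjusted p = 0.305). None of the 5 was numbered 7 or dated 15 July, so this value and the full-length one rest on different sets of embryos. In UMI reads of mz_DKO embryos Polr1a was called (-0.98, limma adjusted p = 0.00176). On 8 March alone the full-length mz_NrKO change was -1.25 (adjusted p = 0.00742) and on 15 July -0.68 (adjusted p = 0.246).

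Rrp9 (chromosome 9, 106475963 to 106485424, plus strand) had 67.2, 115 and 209 TPM in mz_NrKO, 88.6, 138 and 199 in mz_DKO, 133, 220 and 305 in mz_EKO and 65.3, 205 and 259 in mz_DHet. In mz_NrKO 9 of 10 and in mz_DKO 10 of 10 embryos lay below the control median, with changes of -0.59 ± 0.16 (adjusted p = 0.00353) and -0.43 ± 0.16 (adjusted p = 0.031). Within dates it was -0.81 on 8 March (adjusted p = 0.000173) and -0.47 on 15 July (adjusted p = 0.262) in mz_NrKO. Bop1 had 49.2, 110 and 270 TPM in mz_NrKO (-0.34 ± 0.15, adjusted p = 0.092) and 88.3, 126 and 160 in mz_DKO, where all 10 embryos lay below the control median of 181 (-0.41 ± 0.15, adjusted p = 0.033). On 8 March alone Bop1 was called in mz_NrKO (-0.58, limma adjusted p = 0.00909) and mz_DKO (-0.58, adjusted p = 0.00196), but on 15 July mz_NrKO had 0.05 (adjusted p = 0.948). In UMI reads Rrp12 was called in mz_NrKO (0.96, adjusted p = 0.00223) and mz_DKO (0.84, adjusted p = 0.00066). Rrp12 was not called on 8 March in mz_NrKO (0.35) or mz_DKO (0.55), or on 15 July in mz_NrKO (1.55). Exons of Rrp9 overlap Parp3, those of Polr1a Gm26628 and those of Bop1 Mroh1, each on the other strand, so reads of these pairs may not be told apart.

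**Figure D5:**
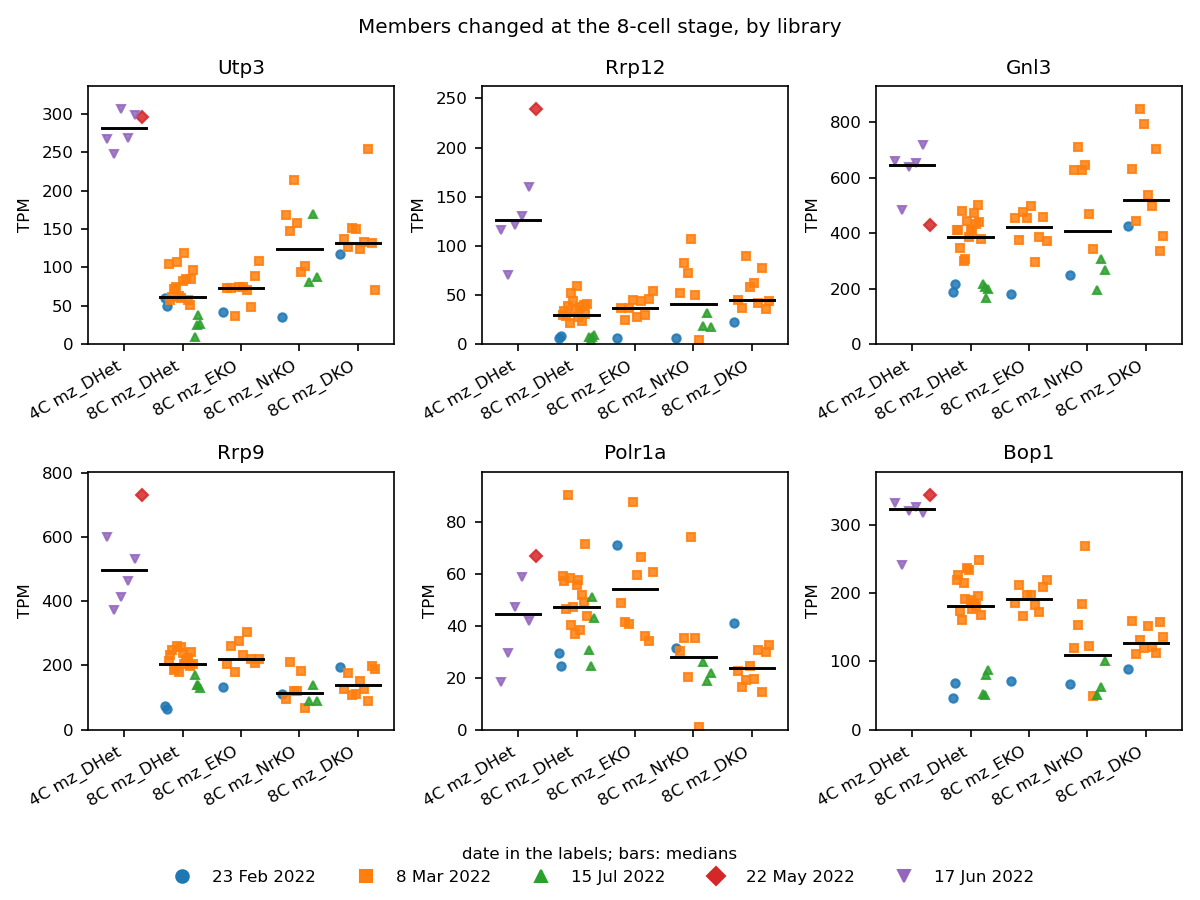
TPM of the 6 genes called in 8C mz_NrKO or mz_DKO embryos, in every library of 4C mz_DHet and of the 4 groups at 8C, with bars at the medians and symbols for the date in the labels. Utp3 medians are 61.5 TPM in mz_DHet, 125 in mz_NrKO and 132 in mz_DKO, all under the 282 TPM of 4C mz_DHet, and in each panel the 8C groups overlap.

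Without replicate 7 of mz_NrKO 7 of 42 genes were called (beside 28.8% of all genes), the 4 above with Rrp12 (1.01), Bms1 (0.49) and Nop14 (0.31) higher in addition. The median of 4C controls, of 8C controls and of 8C mz_NrKO stood at 282, 61.5 and 125 TPM for Utp3, at 645, 386 and 407 for Gnl3, at 496, 205 and 115 for Rrp9 and at 44.6, 47.0 and 28.1 for Polr1a. Markers of stage differed between the same groups. The 7 markers of the 8-cell embryo summed to a median of 997 TPM (173 to 1656) in mz_DHet and 1136 (821 to 1791) in mz_EKO, against 473 (173 to 2550) in mz_NrKO and 387 (125 to 893) in mz_DKO. The 6 markers of the 2-cell burst summed to 8.16 and 22.3 TPM in mz_DHet and mz_EKO and to 144 (1.97 to 771) and 164 (96.5 to 1758) in mz_NrKO and mz_DKO, with Zscan4d and Zscan4c at a median of 0 in all 4. Oocyte markers summed to 20.3, 18.1, 57.3 and 102 TPM in the same order. Their part in the differences of the 4 genes was not tested.

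Set directly against each other, mz_NrKO and mz_EKO embryos at 8C differed in 6 of 42 genes (22.7% of all genes). Utp3 (1.12, adjusted p = 0.000853) and Gnl3 (0.41, adjusted p = 0.038) were higher in mz_NrKO, and Polr1a (-1.11, adjusted p = 0.0131), Rrp9 (-0.78, adjusted p = 0.00177), Ubtf (-0.68, adjusted p = 0.0484) and Polr1e (-0.56, adjusted p = 0.0341) lower. Ubtf had medians of 171 TPM in mz_NrKO and 282 in mz_EKO, and Polr1e of 61.4 and 96.3, with 8 of 10 mz_NrKO embryos below the mz_EKO median for each. Without replicate 7 of mz_NrKO (22.9% of all genes called) Ubtf (-0.33, adjusted p = 0.211) and Polr1e (-0.44, adjusted p = 0.0968) were not called, and Polr1a was at -0.61 (adjusted p = 0.0418). On 8 March alone Ubtf (-0.69, adjusted p = 0.0663), Polr1e (-0.48, adjusted p = 0.0759) and Gnl3 (0.42, adjusted p = 0.0585) were not called. Between mz_DKO and mz_NrKO none of the 42 was called (0.147% of all genes; 1 at an unadjusted p under 0.05, limma), with values from -0.17 to 0.57. The one was Noc2l (0.57 ± 0.28, adjusted p = 0.485).

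Whether the effect of mz_NrKO differed between stages was tested in a joint fit. Utp3 had a log2 fold change of -0.50 at L2C (adjusted p = 0.689), where medians were 274 and 294 TPM, and the effect at 8C exceeded that at L2C by 1.58 ± 0.38 (adjusted p = 0.0143). On 8 March alone, the date of all L2C mz_NrKO embryos, the effects were -0.07 at L2C and 0.89 at 8C, and their difference of 0.96 ± 0.39, an alternative added after seeing the data, was not called (adjusted p = 0.197). Against 4C the difference was 1.31 ± 0.38 (adjusted p = 0.0553). For Polr1a the effect at 8C was lower than at 4C by -1.67 ± 0.48 (adjusted p = 0.0487), and than at L2C by -1.34 ± 0.48 (adjusted p = 0.132). These were the only genes of the 42 called in the 2 tests, in which 1.79% and 1.5% of 17686 genes were called. Without replicate 7 of 8C mz_NrKO, an alternative added after seeing the data, the Polr1a difference from 4C was -1.22 (adjusted p = 0.077) and was not called, while the Utp3 differences were 1.65 from L2C (adjusted p = 0.00956) and 1.38 from 4C (adjusted p = 0.0403).

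Of the 113 other ribosome biogenesis genes, 16 were higher and 14 lower in 8C mz_NrKO and 20 higher and 14 lower in mz_DKO, shares of 26.5% and 30.1%, beside 28.3% and 33.7% of all genes. Among those called in mz_NrKO the largest values were those of Taf1a (-0.88), a polymerase I promoter factor, the kinase Riok3 (-0.83), Tma16 (-0.83) and Tbl3 (0.79), of the small subunit processome. Among those called in mz_DKO they were the helicase Ddx47 (0.88), Tbl3 (0.88), the GTPase Gnl3l (-0.84) and the helicase Dhx33 (0.80). Of 85 ribosomal protein genes 26 were higher and none lower in mz_NrKO, and 7 were higher and 1 lower in mz_DKO, with median changes of 0.27 and 0.11. With median-of-ratios scaling 14 ribosomal protein genes were higher in mz_NrKO, and the other biogenesis genes split into 14 higher and 16 lower in mz_DKO.

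The authors' deposited table, in which a gene counts once it passes 1.5-fold at a rate of false discovery below 0.1, gave 3 of the 42 genes in 8C mz_NrKO and 3 in mz_DKO from full-length reads, beside 13.4% and 15% of all genes with a value there. In mz_NrKO these were Utp3 (log2 fold change 1.20), Rrp12 (0.91) and Polr1a (-0.73) in the authors' deposited table, and in mz_DKO the same 3 (0.90, 0.73 and -1.02). From UMI reads the authors' deposited table gave 5 genes in each (14.1% and 17.7% of all genes), Rrp9 lower in both (-0.67 and -0.60). It gave none of the 42 at L2C and 4C or in 8C mz_EKO. Against Nrpp controls, the authors' deposited table gave Utp14a in oocytes (-0.66, beside 0.458% of all genes), Gnl3 in E2C m_NrKO (0.70, beside 0.616%) and, in E2C mz_NrKO (2.5%), Gnl3 (1.14), Bms1 (0.92), Nolc1 (0.73) and Utp4 (0.65) higher and Rrs1 (-1.37) lower.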

How the data were processed

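Per the submitters' processing notes, reads were trimmed with cutadapt, aligned with STAR to mm10 and quantified with RSEM, and DESeq2 was used for the authors' comparisons. The authors deposited TPM per gene for 263 full-length and 110 UMI libraries, and tables of log2 fold changes with false discovery rates (adjusted p-values). Per the file headers, those tables call a gene past a 1.5-fold change and a rate of 0.1. Read depth is unknown, since TPM keeps none; 10655 to 15971 genes per library exceeded 1 TPM. Here log2(TPM + 1) was tested with limma 3.58.1 (R 4.3.3, trended moderated variance, two-sided), per stage, with group and date as factors, over genes at 5 TPM or more in as many libraries as the smallest group holds. Calls used Benjamini-Hochberg adjusted p under 0.05 over all genes tested. Fold changes are on the log2(TPM + 1) scale, which understates changes of low genes. Stage comparisons came from 1 fit of the control groups without date. The code was tested on simulated data. Named genes were all members called (up to 12 per comparison by size), otherwise the 3 with the smallest p, per role the highest and lowest level, and up to 4 called genes of the other lists; examples beyond these were chosen after their values were seen. The members and lists were chosen with earlier results of these data known. Alternatives were another pseudocount, no filter, median-of-ratios scaling, no date factor, single dates, UMI reads, another control, a replicate block and left-out libraries. Same-numbered libraries were not paired: in no comparison did every pair correlate above 0.1. For MII NrKO against NrHet 10 of 12 pairs did (median 0.164). Dates were not removed before this check, so it cannot tell pairing from a shared date.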

Additional observations from a re-analysis of the deposited data

Results flagged for a closer look

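Among 35 sets of values (the summed level or 1 called gene within a group), 1 library lay far from the others in 4; chance flags about 1 in 20. The 42 genes summed to 8444 TPM in replicate 1 of 8C mz_EKO, below the group median of 10424, and to 14311 in replicate 6 of L2C z_NrHet, above its median of 12139. Polr1a stood at 74.2 TPM in replicate 5 of 8C mz_NrKO, above the median of 28.1, and Utp3 at 255 TPM in replicate 8 of 8C mz_DKO, above the median of 132.

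The effect of mz_NrKO differed between stages for Utp3, by 1.58 between 8C and L2C on the log2 scale, and for Polr1a, by -1.67 between 8C and 4C. The Utp3 difference was 0.96 on 8 March alone (adjusted p = 0.197, limma) and the Polr1a difference -1.22 without replicate 7 of 8C mz_NrKO (adjusted p = 0.077), and neither was called there. At 8C mz_NrKO differed directly from mz_EKO in Utp3 (1.12), Gnl3 (0.41), Polr1a (-1.11), Rrp9 (-0.78), Ubtf (-0.68) and Polr1e (-0.56), as log2 differences. Without replicate 7 of mz_NrKO Ubtf (-0.33, adjusted p = 0.211) and Polr1e (-0.44, adjusted p = 0.0968) were not called and Polr1a was at -0.61 (adjusted p = 0.0418).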

How the results depend on the processing

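Counts of called genes stayed within 1.5 times of the reported count in 171 of 200 pairs of a result and an alternative. The rest follow. Among these, shares of all genes called are given above without a date factor at L2C, with Nrpp controls and without replicate 7. For the other settings such shares are not given, so whether those counts moved with all genes cannot be judged. Without a date factor 9 genes were called at L2C in mz_NrKO, 3 in mz_EKO and 4 for the 8C minus L2C effect. On single dates E2C mz_NrKO gave 1 (1 August), 1 (7 November) and 0 (14 November), m_NrKO 2 (1 August: Nop16 and Tsr1) and 2 (7 November: Bms1 and Nob1), and 8C mz_NrKO 1 (15 July: Utp3). With Nrpp controls there were 2 in MII oocytes and 0 in E2C mz_NrKO. 8C mz_NrKO gave 7 without replicate 7 and 7 without the libraries of 23 February. With no filter 3 were called in 8C mz_DKO, 3 between mz_NrKO and mz_EKO and 0 for the 8C minus 4C effect, where a pseudocount of 0.1 gave 0, median-of-ratios scaling 2 and UMI reads 0. UMI reads gave 3 for the 8C minus L2C effect and 8 March alone 0. From L2C to 4C, median-of-ratios scaling gave 1 (Utp18), UMI reads 2 (Fbl and Nop56) and z_NrHet controls at L2C 1 (Ncl).

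A replicate block was also tried, although no label pairs same-numbered libraries. With it 8C mz_NrKO gave 0 called genes, mz_DKO 3, L2C to 4C 1 (Utp18) and both effect differences 0. It gave 2 for E2C mz_NrKO, 4 for mz_NrKO against mz_EKO and 40 for E2C to L2C. The shares of all genes called with the block are not given, so these counts cannot be set against them. Of 759 fold changes of named genes under an alternative, 694 kept direction and side of the threshold, 51 lost the call, 10 gained it and 4 reversed: Tsr1 (0.18, 14 November) and Gnl3 (-0.086, 7 November) in E2C m_NrKO, Polr1a in L2C mz_DKO on 8 March (-0.19) and Noc2l between 8C mz_DKO and mz_NrKO in UMI reads (-0.073). The cause of these shifts was not tested. Group sizes of 4 to 10 at L2C and 4C limit what those stages can show, and TPM gives no counting error.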
